A study of Homo sapiens with 15 samples.

Results

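NPY1R, NPY5R and FSTL5 are 3 genes that lie close together on the long arm of chromosome 4, and their expression was followed in the breast cancer cell line BT474 and in 4 clones of it that resist trastuzumab emtansine (T-DM1). They were taken by symbol, with the brightest probe set standing for a gene; each had 1 probe set. They make up 3 of the 14884 genes that carried a symbol in these data, and 2 of them, NPY1R and FSTL5, passed the filter on dim probe sets that left 12147 genes for testing. The genes were chosen by measured values, the differences between clones and parental cells on these same arrays, so those differences are given as values, without a test.

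BT474 is a human luminal breast tumour line with amplified HER2, and T-DM1 couples an anti-HER2 antibody to a drug that poisons microtubules. Total RNA from 5 groups was hybridised to 15 Affymetrix arrays, 3 per group. The groups were the sensitive parental line and its resistant clones, C#1 and C#2 (here clones 1 and 2) and also C#3 and C#6 (clones 3 and 6). Each clone grew from a single cell after prolonged T-DM1 exposure and was then kept for 3 months in 5 nM of the drug. The sources used here do not state whether the drug was present at harvest. All groups are BT474 cells, no clone without drug selection was measured, and selection, single-cell cloning and long culture in T-DM1 therefore cannot be told apart. The labels call the 3 arrays of a group biological replicates; those of a clone replicate that clone only, and whether they came from separate cultures is not stated, so p-values measure the spread between these arrays.

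No array was left out. The deposited values are on a log2 scale. The upper quartile of an array lay between 5.94 and 5.96 in the parental arrays and between 5.80 and 5.89 in the clone arrays, without overlap. Markers without a symbol here could not be read. Of the luminal epithelial markers, 7 of the 7 with a symbol were above the 40th percentile of every array. Their mean was 9.54 to 9.60 in parental arrays and 9.28 to 9.66 in clone arrays. The same held for 5 of 5 genes that are amplified with HER2 (means 9.66 to 9.75 and 9.30 to 10.03). ERBB2, the HER2 gene, carried no symbol and was not analysed here. Of the fibroblast markers 0 of 2 (DCN and LUM) reached that percentile in any array, with list means of 2.69 to 2.93 in parental and 2.69 to 2.91 in clone arrays. Of 3 basal markers KRT14 was above it in all arrays, MYLK in 2 and KRT5 in 0 (means 3.55 to 3.67 and 3.47 to 3.73). In each of the leukocyte (3 genes, means 3.58 to 3.73 and 3.46 to 3.92), endothelial (3, 3.32 to 3.52 and 3.24 to 3.58) and neuron (2, 4.29 to 4.37 and 4.37 to 4.88) lists, 1 gene was above it in all arrays, namely CSF1R, VWF and SYP. The part of such markers in the results was not tested. In such bulk RNA, fewer cells with a transcript and less of it per cell cannot be told apart.

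Neuropeptide Y and peptide YY are small amidated peptides of nerves and gut that act on Y receptors. These receptors couple to inhibitory G proteins, which lower cyclic AMP. NPY1R encodes the Y1 receptor, the form best known from breast tumours, where it is described together with the oestrogen receptor, and NPY5R encodes the Y5 receptor, linked mainly to feeding. FSTL5 encodes a secreted glycoprotein with a follistatin-like domain, calcium-binding EF-hands and immunoglobulin domains, known mostly from brain, with few established functions.

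In the RefSeq gene order of assembly GRCh38.p14, the coding genes around them run RAPGEF2, FSTL5, NAF1, NPY1R, NPY5R, TKTL2 and TMA16. NPY1R and NPY5R point away from each other, and their annotated starts are 11.3 kb apart. FSTL5 starts 1.17 Mb from NPY1R, on the same minus strand, with NAF1 as the only coding gene between them. The 250 bases before each start, from RefSeq, are shown so that a reader can compare the start regions of the 2 genes that were lower in the clones with that of their dim neighbour. They are NPY1R at chr4:163332597-163332846 (minus strand), FSTL5 at chr4:162164001-162164250 (minus strand) and NPY5R at chr4:163343642-163343891 (plus strand). Each is written 5′ to 3′ along its gene, with capitals on the GC boxes (GGGCGG, or CCGCCC where it lies on the other strand) and on the E-box CACGTG.
NPY1R: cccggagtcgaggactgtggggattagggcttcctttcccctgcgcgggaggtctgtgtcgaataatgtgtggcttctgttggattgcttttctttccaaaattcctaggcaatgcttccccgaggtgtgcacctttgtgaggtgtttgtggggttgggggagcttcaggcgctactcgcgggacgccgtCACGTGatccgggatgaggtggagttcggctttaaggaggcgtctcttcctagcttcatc
FSTL5: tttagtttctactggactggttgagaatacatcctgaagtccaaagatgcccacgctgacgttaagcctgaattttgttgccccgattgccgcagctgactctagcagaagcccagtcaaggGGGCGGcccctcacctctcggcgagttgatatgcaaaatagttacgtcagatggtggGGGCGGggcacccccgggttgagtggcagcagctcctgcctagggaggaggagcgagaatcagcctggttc
NPY5R: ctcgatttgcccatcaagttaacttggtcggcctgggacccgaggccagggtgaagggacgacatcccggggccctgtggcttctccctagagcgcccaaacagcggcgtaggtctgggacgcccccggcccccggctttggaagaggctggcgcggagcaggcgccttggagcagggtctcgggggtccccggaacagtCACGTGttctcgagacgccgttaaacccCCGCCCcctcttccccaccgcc

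The NPY1R window was 56.4% G and C with 15 CpG dinucleotides, that of FSTL5 56.4% with 11, and that of NPY5R 68.0% with 22. The median of all 35116 RefSeq windows of the same length was 58.0% with 11 CpG, so the NPY1R and FSTL5 windows were close to it in base composition and the NPY5R window was richer. The E-box began at position -60 from the NPY1R start and at -50 from the NPY5R start, and it occurs in 6.34% of all windows; it was added to the search after these sequences had been seen. GC boxes began at -128 and -71 from the FSTL5 start and at -22 from that of NPY5R, and 42.6% of all windows hold one. A second RefSeq start of NPY5R, with the window chr4:163343852-163344101, had 78.4% G and C, 33 CpG, GC boxes and no E-box.

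Further letters were searched on both strands without a match in the windows of NPY1R, FSTL5 or NPY5R. These were the oestrogen response element (in 0.0399% of all windows), the nuclear receptor half-site AGGTCA, which overlaps that element (12.1%), the AP-1 site TGANTCA (6.57%), the cAMP response element TGACGTCA (1.65%), the GATA site AGATAA (9.17%), the CCAAT box (32%) and the TATA box TATAAA (10.7%). A match is a run of letters and not a shown binding site, and the lack of one refers to these windows alone.

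NPY1R was high in parental BT474 and low in every clone. Its log2 values were 8.93, 9.33 and 9.49 in the parental arrays (9.25 ± 0.29, SD, n = 3). In clone 1 they were 5.62, 6.18 and 5.59 (5.80 ± 0.33, n = 3), and in clone 2 they were 5.73, 5.89 and 5.84 (5.82 ± 0.08, n = 3). The receptor was thus at nearly the same level in these clones. In clone 3 the values were 6.37, 6.12 and 5.93 (6.14 ± 0.22, n = 3), and in clone 6 they were 5.28, 5.68 and 5.15 (5.37 ± 0.28, n = 3). The parental and clone arrays did not overlap, with a gap of 2.55 between the lowest parental and the highest clone value. Clone 3 stood highest and clone 6 lowest among the clones.

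The log2 change of NPY1R from parental was -3.45, -3.43, -3.11 and -3.88 in clones 1, 2, 3 and 6 (SE 0.18 each). On the linear scale NPY1R was 11.0-, 10.8-, 8.63- and 14.7-fold lower. Among the 12147 genes tested, NPY1R had the most negative change, rank 1, in each of the 4 comparisons, as it did among the 429 tested genes of chromosome 4. These 4 comparisons share the parental arrays, and the contrast is the one by which the gene was chosen. The receptor transcript remained measurable in the clones: NPY1R stood between percentiles 94.9 and 96.6 of the parental arrays and between 67.5 and 79.6 of the clone arrays, above the 40th percentile in all 15.

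FSTL5 showed the same step with an almost flat level among the clones. Its log2 values in the parental arrays were 5.85, 6.01 and 6.34 (6.07 ± 0.25, n = 3). In clone 1 they were 3.30, 3.25 and 3.18 (3.25 ± 0.06, n = 3), and in clone 2 they were 3.25, 3.37 and 3.42 (3.35 ± 0.09, n = 3). Both clones lay far below the parental line. In clone 3 they were 3.18, 3.28 and 3.28 (3.25 ± 0.06, n = 3), and in clone 6 they were 3.17, 3.27 and 3.06 (3.17 ± 0.11, n = 3). The groups again did not overlap, with a gap of 2.43 between the lowest parental and the highest clone array.

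The log2 change of FSTL5 from parental was -2.82, -2.72, -2.82 and -2.90 in clones 1, 2, 3 and 6 (SE 0.12 each), or 7.08-, 6.59-, 7.07- and 7.47-fold lower. It held rank 4 or 5 among the most negative changes of all genes tested in each clone, and rank 2 on chromosome 4. FSTL5 was above the 40th percentile of the array (3.56 to 3.62) in the 3 parental arrays alone, so it passed the filter only through the group in which it is high. In the clones it stood between percentiles 24.8 and 35.3, at the dim end of the scale, where array differences are compressed. How much FSTL5 transcript the clones kept below that level is not measurable on these arrays.

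NPY5R was dim in all groups. Its log2 values were 2.97, 3.03 and 3.17 in parental cells (3.05 ± 0.10, n = 3), 3.15, 2.77 and 2.78 in clone 1 (2.90 ± 0.22, n = 3) and 3.12, 3.04 and 3.08 in clone 2 (3.08 ± 0.04, n = 3). They were 3.31, 2.85 and 3.03 in clone 3 (3.06 ± 0.23, n = 3) and 2.82, 3.12 and 2.97 in clone 6 (2.97 ± 0.15, n = 3). The arrays of all groups overlapped, and the Y5 receptor was above the 40th percentile in 0 of 15 arrays, so it was not among the genes tested. Without the filter its log2 change from parental was -0.15, 0.03, 0.01 and -0.09 in clones 1, 2, 3 and 6 (SE 0.13 each), which is within the spread of its arrays. A difference in NPY5R could not be detected at this brightness. The plot of log2 values by array shows the 3 genes side by side.

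**Figure D1:**
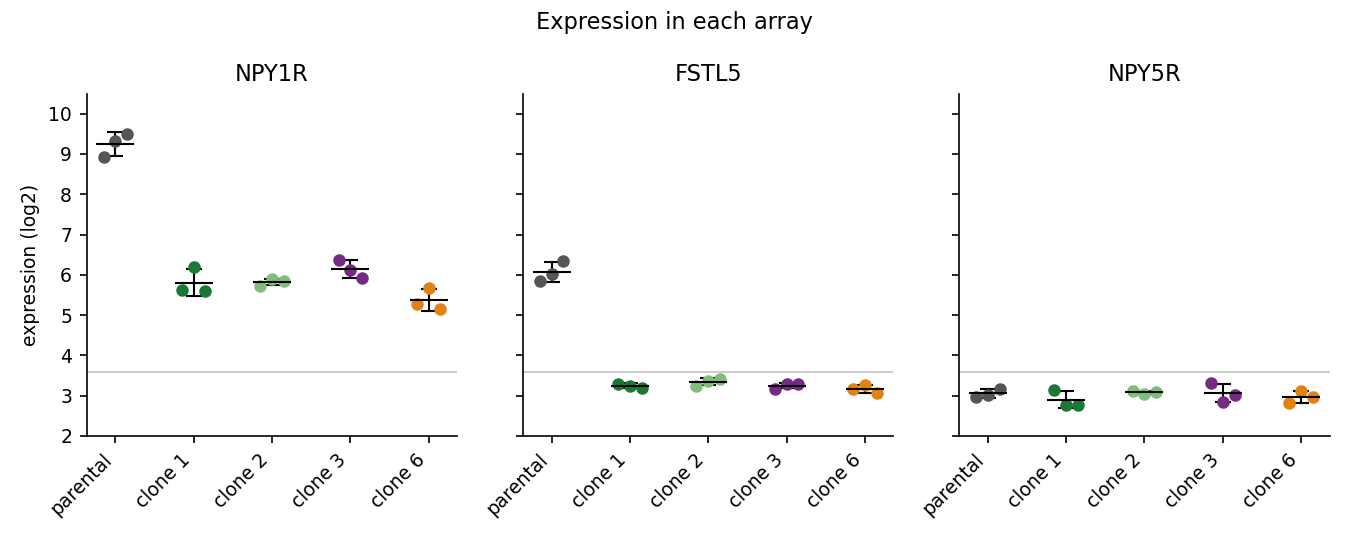
Log2 expression of NPY1R, FSTL5 and NPY5R in each array (points), with the group mean and SD (bars, n = 3); the grey band is the 40th percentile of the arrays, 3.56 to 3.62. All clone values of NPY1R lie between the band and the parental values, those of FSTL5 drop below the band, and those of NPY5R stay below it in all 5 groups; levels of different genes are not comparable with each other.

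The clones were then compared with each other, a contrast that did not choose the genes, with limma's moderated test and Benjamini-Hochberg adjustment over all 12147 genes. Of the 6 pairs of clones, NPY1R differed in 1, clone 3 against clone 6. It was 0.77 higher on the log2 scale in clone 3 (SE 0.18, 95% interval 0.39 to 1.16, limma adjusted p = 0.0124), or 1.71-fold, and the 3 arrays of clone 3 all lay above those of clone 6. In that comparison 9.01% of all genes were called (adjusted p below 0.05). The call was lost without clone 3 replicate 1 (0.66, adjusted p = 0.0631) or without clone 6 replicate 3 (0.66, adjusted p = 0.0639). It was kept under 22 of 24 alternatives, over which its adjusted p ranged from 0.00701 to 0.0639. Many of these leave the difference of 0.77 as it is. They are other filters, the mean of probe sets for a gene with 1 probe set, and fits without an array of another group. The count of alternatives therefore says little about how stable the call is.

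Neighbours in the order of NPY1R levels were not told apart. Clone 2 minus clone 3 was -0.32 (95% interval -0.71 to 0.06, limma adjusted p = 0.275) and clone 1 minus clone 3 was -0.34 (-0.73 to 0.04, adjusted p = 0.225). Clone 1 differed from clone 2 by -0.02 (-0.41 to 0.36, adjusted p = 0.995). Clone 6 lay 0.43 below clone 1 (0.04 to 0.81, adjusted p = 0.149) and 0.45 below clone 2 (0.06 to 0.83, adjusted p = 0.136), and neither passed after adjustment. These intervals are not adjusted for the number of genes. The shares of all genes called were 0.00% between clones 1 and 2, where 807 genes had an unadjusted p below 0.05, and 16.8, 12.7, 15.8 and 11.2% for clone 1 against 3, 1 against 6, 2 against 3 and 2 against 6. An F test over the 4 clones gave NPY1R an adjusted p of 0.0300 by limma, beside 22.5% of all genes called.

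FSTL5 was not called in any pair of clones by the same tests. It entered them only through its parental arrays and was below the 40th percentile in all 12 clone arrays. The largest of its 6 differences was 0.18, clone 2 minus clone 6 (SE 0.12, 95% interval -0.06 to 0.43, limma adjusted p = 0.372), and the F test gave an adjusted p of 0.655. Since its clone values are at the dim end, where differences are compressed, these tests cannot decide whether the clones differ in FSTL5 transcript. For NPY5R, fitted without the filter, the 6 differences had sizes of 0.02 to 0.18 (limma adjusted p 0.502 to 0.952; F test 0.688).

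**Figure D2:**
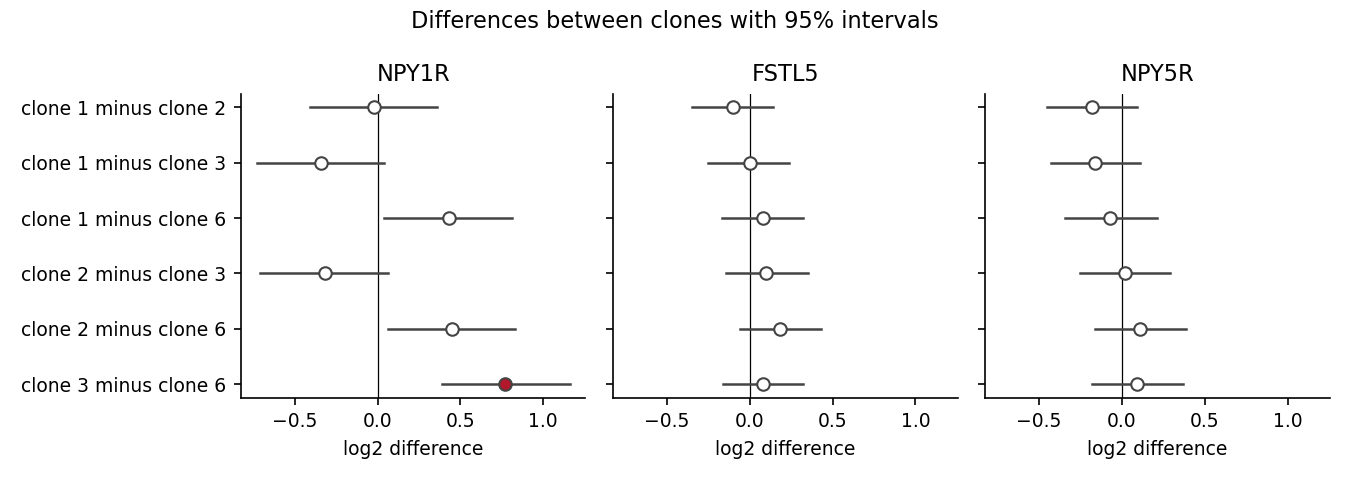
Log2 differences of NPY1R, FSTL5 and NPY5R for the 6 pairs of clones, with 95% intervals from the limma fit (SE shared over 15 arrays); the filled point marks the difference with an adjusted p below 0.05. NPY1R in clone 3 minus clone 6, at 0.77, is the only filled point, and all FSTL5 intervals cross 0.

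The genes between and beside NPY1R and FSTL5 showed no step of that size. NAF1, an assembly factor of H/ACA ribonucleoproteins that lies between them, was at 6.95 ± 0.17 (n = 3) in parental cells. Its log2 changes were -0.32, -0.24, -0.34 and -0.26 in clones 1, 2, 3 and 6 (SE 0.13), and none was called (limma adjusted p = 0.0776 to 0.212). RAPGEF2, an exchange factor for Rap proteins and the tested gene next to FSTL5 on its other side, fell in clone 2 by 0.48 and in clone 6 by 0.52 (SE 0.15, limma adjusted p = 0.0395 and 0.0213). Its changes in clones 1 and 3 were -0.24 and -0.25. Both RAPGEF2 calls were lost after renewed quantile normalization and without any 1 of 5 arrays for clone 2 (the 3 parental arrays and clone 2 replicates 1 and 2; -0.54 to -0.37) or of 4 for clone 6 (parental replicates 2 and 3, clone 6 replicates 1 and 2; -0.52 to -0.43). TMA16, a ribosome assembly factor beyond NPY5R, fell in clone 3 by 0.51 (SE 0.12, limma adjusted p = 0.00731) and changed by -0.09, -0.19 and -0.23 in clones 1, 2 and 6. TKTL2, a transketolase-like gene next to NPY5R, was dim throughout (2.79 to 3.03) and was not tested.

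A wider stretch of 40 coding genes on each side, with NAF1, held 81 genes. Of these, 59 had a probe set with a symbol here and 40 were tested. Of the 40 tested, 5 were called in clone 1 (4 higher, 1 lower), 4 in clone 2 (2 and 2), 6 in clone 3 (2 and 4) and 9 in clone 6 (2 and 7). That ranges from 4 to 9 of 40 and is 22.5% in clone 6, beside 17.2, 16.9, 17.2 and 22.4% of all genes tested in clones 1, 2, 3 and 6. Of all genes tested, 6.03, 5.47, 6.22 and 7.73% were called higher and 11.2, 11.5, 11.0 and 14.7% lower. Their median log2 change was -0.01, -0.06, -0.06 and -0.05, beside -0.02, -0.02, 0.00 and -0.02 for all genes. In at least 1 clone 15 of the 40 were called, or 37.5%, the same share as among all genes, and 0 of 40 were called in all 4 clones by limma (1 with an unadjusted p below 0.05 in each), beside 3.65% of all genes called lower and 1.04% called higher in all 4. Renewed quantile normalization gave 5 higher and 1 lower, 4 and 1, 3 and 4, and 4 and 4. Under it, and with array weights, GALNT7 was called higher in clone 3 too (0.31 and 0.27, limma adjusted p = 0.0396 and 0.0379) and so in all 4 clones. None of the 40 changed by more than 1.11 in either direction. Without 1 array the counts ran from 3 to 6, 3 to 5, 2 to 6 and 5 to 11; the lowest in clone 3 came without parental replicate 3 (2), in clone 6 without parental replicate 2 or clone 6 replicate 2 (5 each), and in clone 1 without parental replicate 1 or 3 or clone 1 replicate 3 (3 each), and in clone 3 without parental replicate 2 the count was 3.

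Among the 10 genes on each side with NAF1, 11 of 21 were tested, and the most negative change in that nearer stretch was the -0.52 of RAPGEF2, against -2.72 to -2.90 for FSTL5 and -3.11 to -3.88 for NPY1R. Apart from NPY1R and FSTL5, 427 genes of chromosome 4 were tested, the neighbours among them. Of these, 61, 59, 53 and 82 were called in clones 1, 2, 3 and 6. That is 14.3, 13.8, 12.4 and 19.2%, beside 17.2, 16.9, 17.2 and 22.4% of all genes tested. The next most negative genes of the chromosome were NMU and HERC5, both picked out after their values were seen. NMU, a neuropeptide precursor, was at -1.04 in clone 1 and -1.08 in clone 2. HERC5, an interferon-induced ligase, was at -1.32 in clone 3 and -1.47 in clone 6. DNA copy number was not measured in these data.

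The neighbours that moved most did so in different clones and directions. GALNT7, which starts mucin-type glycans, rose in clones 1, 2 and 6 by 0.68, 0.63 and 1.11 (SE 0.10, highest limma adjusted p = 0.000685) and changed by 0.26 in clone 3. TMEM154, a membrane protein, rose in clones 1 and 2 by 0.94 and 1.07 (SE 0.20, highest limma adjusted p = 0.00378). HPGD, which inactivates prostaglandins, rose in clone 3 by 0.85 (SE 0.12, limma adjusted p = 0.000236). TRIM2, a ubiquitin ligase, fell in clone 6 by 0.85 and in clone 3 by 0.53 (SE 0.14, limma adjusted p = 0.000446 and 0.0165), the second lost without parental replicate 2 or 3 or clone 3 replicate 3 (-0.52 to -0.44). DDX60L, an interferon-induced helicase-like gene, fell in clones 1 and 2 by 0.75 and 0.77 and in clone 6 by 0.39 (SE 0.10, highest limma adjusted p = 0.0115), the last lost without clone 6 replicate 2 (-0.34). AADAT, an aminotransferase of the kynurenine pathway, fell in clone 6 by 0.81 (SE 0.16, limma adjusted p = 0.00190). The others named by their size were TMEM144, higher by 0.54 and 0.60 in clones 1 and 3, MND1, lower by -0.49 and -0.60 in clones 3 and 6, and TMEM131L, lower by -0.77 in clone 3, with a change of -0.49 in clone 6 that passed only with the replicate block (limma adjusted p = 0.126 without it, 0.0156 with it). Apart from that of MND1 in clone 6, these calls were lost without 1 array. For TMEM144 these were parental replicates 1 and 3 in both clones, with clone 1 replicates 2 and 3 (0.38 to 0.58) or clone 3 replicate 2 (0.53 to 0.57). For MND1 in clone 3 they were the 3 parental arrays and clone 3 replicates 1 and 3 (-0.52 to -0.45), and for TMEM131L parental replicates 2 and 3 and clone 3 replicates 1 and 3 (-0.78 to -0.63). In none of them did a change in any clone come near that of NPY1R or FSTL5.

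**Figure D3:**
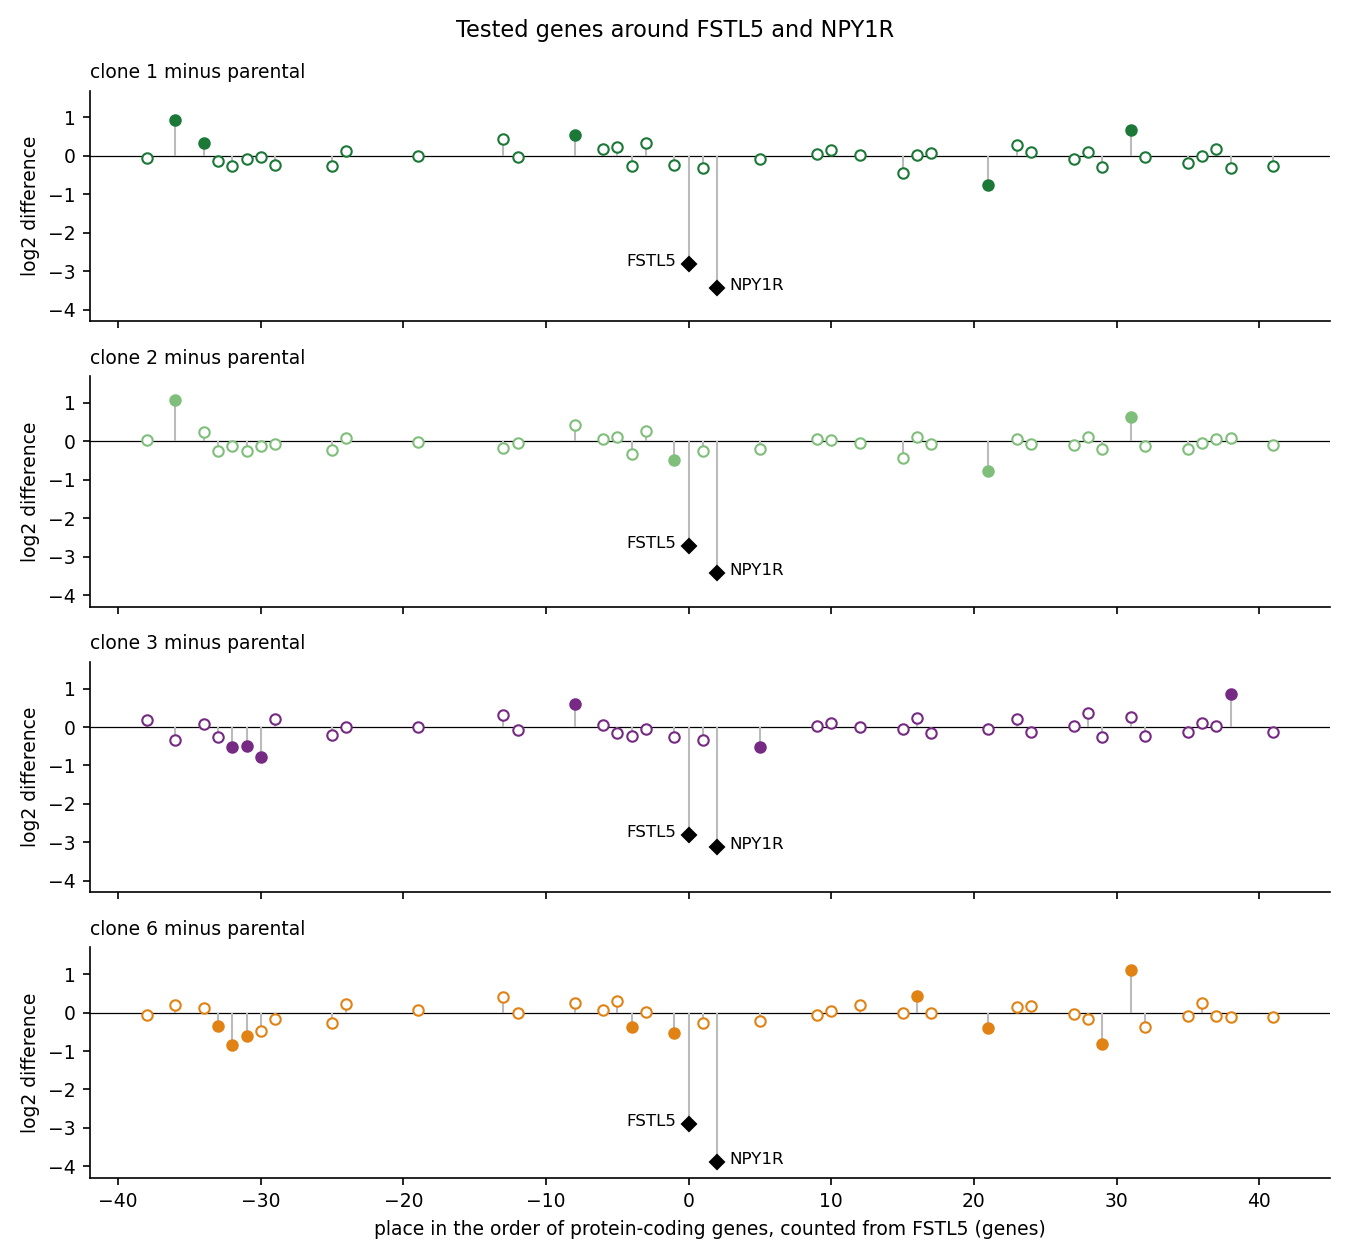
Log2 difference between each clone and the parental line for the tested coding genes around FSTL5 and NPY1R, placed by their order on the chromosome (x axis, genes from FSTL5); filled points are called (adjusted p below 0.05), and the diamonds mark FSTL5 and NPY1R, for which no test is given. FSTL5 and NPY1R drop to between -2.72 and -3.88 in every panel, while NAF1 between them stays at -0.24 to -0.34.

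Other genes of the neuropeptide Y system were taken from a list of peptides, receptors, processing enzymes and peptidases. Leaving out NPY1R and NPY5R, it held 18 genes, of which 12 had a probe set with a symbol here and 9 were tested. Of the 9, 4 were called in clone 1 (1 higher, 3 lower), 3 in clone 2 (all lower), 3 in clone 3 (all lower) and 4 in clone 6 (1 higher, 3 lower), or 44.4, 33.3, 33.3 and 44.4%, beside 17.2, 16.9, 17.2 and 22.4% of all genes. Their median log2 change was -0.08, -0.02, -0.18 and 0.08. With 9 genes, no more is read from these shares.

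The peptide and receptor genes were not called. NPY, the ligand, had log2 values of 4.16 to 4.59 over all arrays and changed by -0.08, -0.05, 0.02 and 0.09 in clones 1, 2, 3 and 6 (SE 0.10, lowest limma adjusted p = 0.607). PYY, peptide YY, changed by 0.22, 0.20, 0.04 and 0.16 (SE 0.17, lowest limma adjusted p = 0.424). NPY2R, the Y2 receptor, lay at 4.08 to 4.39 with changes of -0.02 to 0.08 (SE 0.11), and its gene is also among the 4q neighbours. NPY, PYY (3.87 to 4.79) and NPY2R passed the filter but lay near the array medians of 4.03 to 4.10. Whether their signal exceeds background was not tested, and a change at that level may have gone undetected. NPY4R (2.69 to 3.30) and NPY6R (2.62 to 3.17) were, like NPY5R, too dim to be tested.

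The genes called belonged to peptide processing and breakdown. MME, neprilysin, a surface peptidase that cleaves neuropeptide Y among other peptides, was lower in clones 1, 2, 3 and 6, with changes of -2.17, -2.44, -1.88 and -2.42 (SE 0.18, highest limma adjusted p = 4.35e-06); its fall was already known from these data. PAM, the enzyme that amidates neuropeptide Y and peptide YY, was lower in all 4, with changes of -0.86, -1.07, -0.79 and -1.18 (SE 0.14, highest limma adjusted p = 0.000980). DPP9, a cytosolic dipeptidyl peptidase, fell in clones 1, 2 and 6 by 0.59, 0.54 and 0.48 (SE 0.15, limma adjusted p = 0.0104, 0.0166 and 0.0247). The DPP9 call of clone 2 was lost without parental replicate 3 or clone 2 replicate 2 (-0.52 to -0.42), and that of clone 6 without any parental array or clone 6 replicate 1 (-0.50 to -0.32) and under renewed quantile normalization. DPP8, its paralogue, rose in clone 1 by 0.32 (SE 0.10, limma adjusted p = 0.0314), a call lost without any parental array or clone 1 replicate 2 or 3 (0.26 to 0.33), and fell in clone 3 by 0.50 (limma adjusted p = 0.00181). CPE, a carboxypeptidase of prohormone processing that also lies among the 4q neighbours, rose in clone 6 by 0.42 (SE 0.11, limma adjusted p = 0.0131), lost without parental replicate 1 or 2 (0.35 to 0.37). DPP4, the surface enzyme that trims neuropeptide Y so that it no longer acts on the Y1 receptor, was dim (3.08 to 3.63) and not tested.

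**Figure D4:**
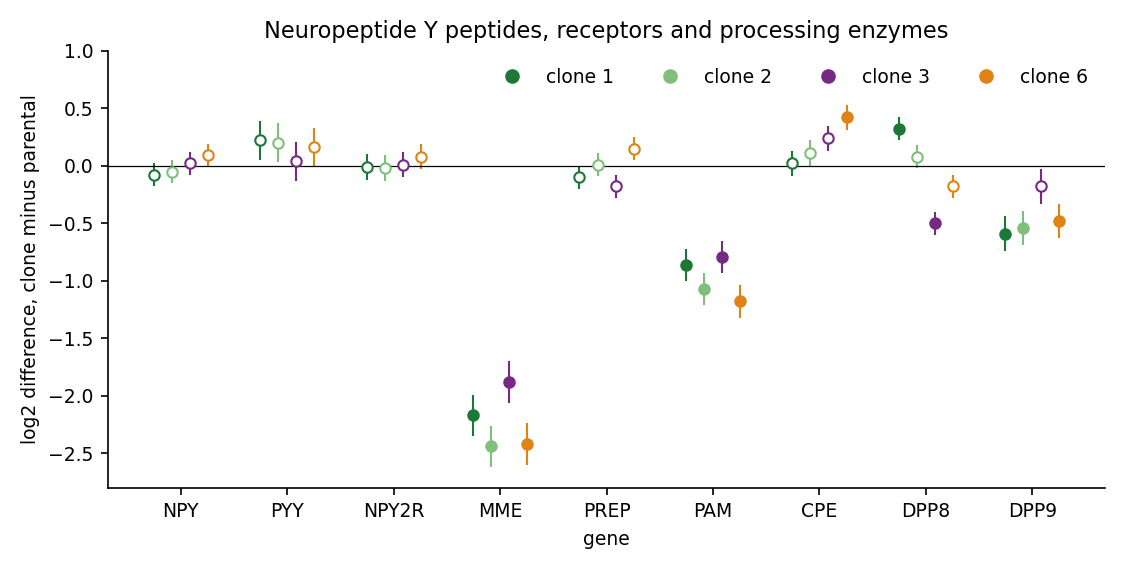
Log2 difference from the parental line, with SE bars, for the 9 tested genes of the neuropeptide Y list other than NPY1R, by clone (colours); filled points are called (adjusted p below 0.05). MME and PAM are called lower in all 4 clones, while NPY, PYY and NPY2R lie within 0.22 of 0.

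A list of signalling genes downstream of Y receptors numbered 50, of which 18 were tested. No G protein, protein kinase A, arrestin or phosphodiesterase gene of it carried a symbol, so none of those was analysed. The genes tested were adenylyl cyclases, receptor kinases, RGS genes, which regulate G protein signals, and CREB1. Of these 3, 3, 0 and 3 were called in clones 1, 2, 3 and 6 (16.7, 16.7, 0.00 and 16.7%), beside 17.2, 16.9, 17.2 and 22.4% of all genes. Without 1 array the counts ran from 2 to 4, 1 to 4, 0 to 1 and 0 to 4. Clone 2 had 1 without parental replicate 1 or 2 or its own replicate 2, clone 3 had 1 without clone 3 replicate 1 or clone 6 replicate 2, and clone 6 had 0 without its replicate 2 and 1 without its replicate 1 or parental replicate 2. Array weights gave 6, 5, 2 and 5 calls, the replicate block 5 in clone 6 and 1 in clone 3, and centring on array medians 1 in clone 3. In clone 3 the count was 0 by limma, with 3 at an unadjusted p below 0.05. ADCY9, an adenylyl cyclase, fell in clones 1 and 2 by 0.75 and 0.54 (SE 0.13, highest limma adjusted p = 0.00957). RGS10, which shortens G protein signals, rose in clone 1 by 0.71 (SE 0.13, limma adjusted p = 0.00151). GRK5, a receptor kinase, rose in clones 1 and 2 by 0.43 and 0.39 (SE 0.13, limma adjusted p = 0.0275 and 0.0419), lost without any 1 of 5 and 7 arrays (0.34 to 0.45 and 0.34 to 0.43), each parental array among them. RGS19 and RGS20, regulators of G protein signals like RGS10, fell in clone 6 by 0.52 and 0.42 (SE 0.17 and 0.14, limma adjusted p = 0.0378 and 0.0348), the first lost without parental replicate 1 or 2 or clone 6 replicate 1 or 2 (-0.55 to -0.35) and under renewed quantile normalization (-0.42, adjusted p = 0.0968), the second without parental replicate 3 or clone 6 replicate 2 (-0.30 to -0.28) and with 6 arrays (adjusted p = 0.0686). RGS17, named because it was the last of the 6 called, rose in clones 2 and 6 by 0.41 each (SE 0.12, limma adjusted p = 0.0342 and 0.0267); its calls were not recomputed without single arrays.

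Relatives of FSTL5 were taken from a list of 22 follistatin and SPARC family genes, of which 11 were tested without FSTL5. There were 2, 1, 0 and 2 calls in clones 1, 2, 3 and 6 (18.2, 9.09, 0.00 and 18.2%), on 2 genes, beside 17.2, 16.9, 17.2 and 22.4% of all genes. The counts fell to 0 in clone 2 without parental replicate 1 and in clone 6 without parental replicate 1 or clone 6 replicate 3. They were 1 in clone 1 without parental replicate 1 or 2 or clone 1 replicate 2 or 3, and 1 in clone 6 without parental replicate 2 or 3 or clone 6 replicate 1. In clone 3, where limma called 0, 2 had an unadjusted p below 0.05. FSTL4, the closest relative of FSTL5 by name, fell in clone 1 by 0.69 (SE 0.12, limma adjusted p = 0.00115) and in clone 6 by 0.39 (limma adjusted p = 0.0332), and changed by -0.36 and 0.11 in clones 2 and 3. IGFBP7, a secreted binding protein, rose in clones 1, 2 and 6 by 0.32, 0.33 and 0.31 (SE 0.10, limma adjusted p = 0.0308 to 0.0346). The FSTL4 call of clone 6 was lost without parental replicate 1 or 3 or clone 6 replicate 3 (-0.41 to -0.27). The IGFBP7 calls were each lost without parental replicate 1 or 2 and without either of 2 arrays of the clone concerned (0.24 to 0.33). FST, follistatin itself, which binds activins, was not called (changes 0.15, -0.04, 0.00 and 0.06, SE 0.09), and FSTL1 was too dim to be tested (3.17 to 3.57). None of these relatives came near the change of -2.72 to -2.90 of FSTL5.

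A list of activins, their relatives, receptors and SMAD proteins, the pathway that follistatin restrains, held 41 genes, of which 22 were tested. These were other ligands of the family, ACVRL1, BAMBI, SMADs and regulators of SMAD signals, without any activin subunit. There were 3, 5, 4 and 4 calls in clones 1, 2, 3 and 6 (13.6, 22.7, 18.2 and 18.2%), near the 17.2, 16.9, 17.2 and 22.4% of all genes. Without 1 array the counts ran from 2 to 5, 2 to 6, 2 to 5 and 2 to 4, with 2 in clone 2 without parental replicate 1 or 3, and 2 in clones 3 and 6 without parental replicate 2. Clone 1 had 5 without clone 6 replicate 1, and clone 2 had 3 without its replicate 3. In all 4 clones 0 were called by limma, and 2 had an unadjusted p below 0.05 in each. SMAD6, an inhibitory SMAD, fell in clones 3 and 6 by 1.10 and 0.64 (SE 0.16, highest limma adjusted p = 0.00877). GDF11, an activin-like ligand, was lower in clones 1, 3 and 6, with changes of -0.46, -0.74 and -0.92 (SE 0.15, limma adjusted p = 0.0368, 0.00219 and 0.000258). The call in clone 1 was lost without any parental array or clone 1 replicate 2 or 3 (-0.49 to -0.33) and under renewed quantile normalization (-0.38). In clone 2 the change of -0.43 (adjusted p = 0.0520) passed with the stricter filter, median centring, the replicate block and array weights (adjusted p 0.0216 to 0.0439). BAMBI, a decoy receptor, rose in clones 1, 2 and 3 by 0.66, 0.59 and 0.49 (SE 0.14, limma adjusted p = 0.00361, 0.00741 and 0.0238). For BAMBI the clone 2 call ended without parental replicate 3 (0.48) and the clone 3 call without parental replicate 2 or 3 or clone 3 replicate 1 or 3 (0.37 to 0.50). SMAD7, an inhibitory SMAD, fell in clone 2 by 0.50 (SE 0.14, limma adjusted p = 0.0183), lost without parental replicate 1 or clone 2 replicate 2 (-0.42 to -0.35) and under renewed quantile normalization. SKIL, a repressor of SMAD signals, rose in clone 2 by 0.49 (SE 0.16, limma adjusted p = 0.0390), lost without any parental array or clone 2 replicate 1 or 3 (0.42 to 0.56). The activin subunit genes, INHBA and INHBB among them, carried no symbol and were not analysed here. The same held for the listed receptors of activins and their relatives other than ACVRL1 and the decoy BAMBI. A role of FSTL5 in this pathway is not established, and none was tested.

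NPY1R is known as a gene that oestrogen raises in breast cancer cells, so the oestrogen receptor and its targets were listed, 36 genes with 26 tested apart from NPY1R. Of these 11, 11, 11 and 10 were called in clones 1, 2, 3 and 6 (42.3, 42.3, 42.3 and 38.5%), beside 17.2, 16.9, 17.2 and 22.4% of all genes, with 2 higher in each and 9, 9, 9 and 8 lower. Their median log2 change was -0.30, -0.21, -0.36 and -0.25, beside -0.02, -0.02, 0.00 and -0.02 for all genes. After renewed quantile normalization it was -0.26, -0.12, -0.28 and -0.19, beside 0.01, 0.02, 0.03 and 0.03. Without 1 array the counts ran from 10 to 12, 7 to 12, 7 to 12 and 7 to 14. In all 4 clones 5 of the 26 were lower and 2 higher, beside 3.65 and 1.04% of all genes. Between clones 1 and 2, 0 of 12147 genes were called, and the 4 comparisons share the parental arrays. Calls in all 4 clones, in this and other lists, are therefore not 4 separate results. ESR1, which encodes oestrogen receptor alpha, was lower in all of them, with changes of -0.84, -0.61, -0.43 and -0.55 (SE 0.14, limma adjusted p = 0.000668, 0.00613, 0.0443 and 0.00896). Its call in clone 3 was lost under renewed quantile normalization and without any 1 of 8 arrays, namely all parental and clone 3 arrays, clone 1 replicate 3 and clone 6 replicate 3 (-0.48 to -0.36).

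The calls in this list were mostly but not only lower. Of the 26 genes, 13 were called lower and 2 higher in at least 1 clone, and the 2 higher are among those named here. PGR, the progesterone receptor, fell in clones 1, 2 and 3 by 1.28, 0.97 and 1.43 (SE 0.28, highest limma adjusted p = 0.0248) and changed by -0.63 in clone 6. The PGR call of clone 2 was lost without parental replicate 2 or 3 or clone 2 replicate 1 or 2 (-0.96 to -0.88). GATA3, a luminal transcription factor, was lower in all 4, with changes of -2.89, -3.14, -0.76 and -2.36 (SE 0.15, highest limma adjusted p = 0.00183). AGR2, a disulphide isomerase that oestrogen raises, was lower in clones 1, 2 and 6, with changes of -1.25, -1.17 and -0.78 (SE 0.14, highest limma adjusted p = 0.000667), and changed by -0.06 in clone 3. TFF1 rose by 0.70, 1.16, 0.58 and 1.51 (SE 0.14, highest limma adjusted p = 0.00750) and TFF3 by 0.69, 1.03, 1.17 and 1.24 (SE 0.17, highest limma adjusted p = 0.00846); both are trefoil peptides that oestrogen raises. GREB1, another oestrogen target, was not called (-0.37, 0.22, -0.38 and -0.41, SE 0.20). Among clone means, that of NPY1R was lowest in clone 6 and that of ESR1 in clone 1, and both were highest in clone 3. The clones were not told apart in ESR1 (limma F test, adjusted p = 0.167), so its order is not resolved. A part of the oestrogen receptor in the lower NPY1R of the clones was not tested.

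The tested genes whose pattern over the 15 arrays was most like that of NPY1R, by Pearson's r, were FSTL5 (0.980), MME (0.976), ANTXR1 (0.970), ANKRD40 (0.968) and PROSER1 (0.967). The least like were CXCR4 (-0.961), LCLAT1 (-0.947) and NCKAP5 (-0.946), all higher in the clones. For FSTL5 the most like were NPY1R (0.980), GXYLT2 (0.972), USP21 (0.970), RPS28 (0.966) and F8A1 (0.966), and the least like were CXCR4 (-0.969), NCKAP5 (-0.947) and AFAP1 (-0.945). These values describe mainly the step between 3 parental and 12 clone arrays, which the points share. Of these genes, FSTL5 and MME came nearest to NPY1R in the size of the step, with MME changing by -1.88 to -2.44, ANTXR1 by -1.64 to -2.03 and PROSER1 by -0.70 to -0.89.

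Over the 12 clone arrays alone the resemblance between NPY1R and FSTL5 was weaker. Their r was 0.420, and 1599 genes had a higher one with NPY1R. The genes most like NPY1R there were WBP11 (0.895), TMEM268 (0.889), ARMC9 (0.884), ZNF585A (0.879) and MPDZ (0.873). All 5 had, like NPY1R, their lowest mean in clone 6 and their highest clone mean in clone 3. Those most like FSTL5 were MIR4266 (0.852), TRIOBP (0.846), HSD17B11 (0.843), HPD (0.840) and ERICH3 (0.839), set against FSTL5 values that span 3.06 to 3.42 only. Among 12147 genes and 12 arrays, high values of r are found for any gene, and none is read as a link.

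**Figure D5:**
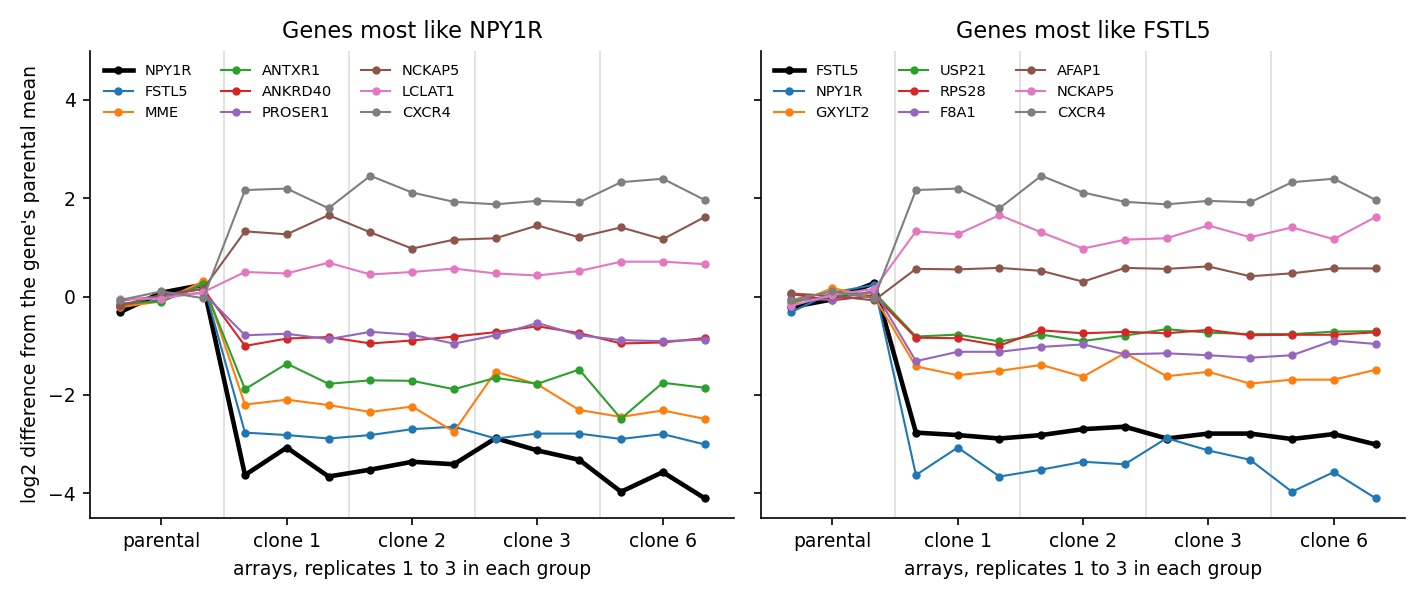
Log2 difference from the gene's own parental mean in each array for NPY1R (left) and FSTL5 (right, both black and bold) and for the 5 most and 3 least alike genes over the 15 arrays. The shared step lies between the parental and the clone arrays, with NPY1R and FSTL5 dropping furthest and CXCR4 rising by 1.92 to 2.23 on the mean of each clone.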

How the data were processed

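The authors deposited 1 table of log2 expression values for 53617 probe sets in 15 arrays. RMA, Affymetrix Expression Console 1.4.1 and Transcriptome Analysis Console are listed as tools, per the submitters' processing notes. The step each tool did, and the build behind the probe sets, are not given in the sources used here. In RMA, background is removed, the arrays' distributions are made alike and each probe set is summarised on a log2 scale, so changes near background are compressed and a shift of most genes one way would be largely removed. Columns of values not used numbered 0.

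Symbols came from the platform annotation (16098 probe sets, 30.0%, with 1 symbol; 37519 with none here, not tested), matched by gene ID to RefSeq, GRCh38.p14. A probe set was kept where it exceeded the 40th percentile of its own array in at least 3 arrays, and the brightest one stood for a symbol. The limma model (version 3.58.1, under R 4.3.3; lmFit, then eBayes, with 10 residual degrees of freedom) gave each group a mean and all 15 arrays a common spread. P-values were adjusted by Benjamini-Hochberg within each comparison over 12147 genes; called means an adjusted p below 0.05. NPY5R used the same model without the filter. The steps were tested on simulated data.

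The genes of interest, lists, tests and alternatives were chosen with earlier results of these data known, so no list is independent evidence. Named genes were the 3 of interest, for likeness the 5 highest and 3 lowest by Pearson's r, up to 10 called neighbours by size and those next to NPY1R and FSTL5, up to 5 called genes per list by size, and fixed genes of the neuropeptide Y, oestrogen and follistatin systems. The E-box, NMU, HERC5 and RGS17 were added after values were seen. The 250-base windows before starts were RefSeq's; the 3 genes matched. Alternatives were other filters and scalings, the replicate number as a block, fits without 1 array or with 6 arrays, other variance estimates and the mean of a gene's probe sets. Plots used matplotlib 3.10.9 and Python 3.11.15. The number of arrays limits the precision.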

Additional observations from a re-analysis of the deposited data

Results flagged for a closer look

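A direct test between 2 clones passed for NPY1R and for other genes named above. For each gene the pair with the largest difference among those called is given, in log2 units with limma's adjusted p over all genes. That p is not adjusted for the 6 pairs of clones, and 9.01 to 16.8% of all genes were called in the pairs given. The limma F test over the 4 clones did not pass for TMEM131L, TMA16, MME, CPE, TFF3 and GREB1. Their adjusted p by that test was 0.0591, 0.0663, 0.0742, 0.0606, 0.0770 and 0.0582. NPY1R was higher in clone 3 than in clone 6 by 0.77 (adjusted p = 0.0124), with means of 6.14 and 5.37; FSTL5 and NPY5R had no such pair. Groups of 3 arrays were not examined for outlying arrays.

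Among genes near NPY1R and FSTL5, GALNT7 differed by -0.85 (clone 3 minus clone 6, adjusted p = 7.96e-05), TMEM154 by 1.40 (clone 2 minus clone 3, 0.000153), HPGD by -1.16 (clone 1 minus clone 3, 1.17e-05) and TRIM2 by 0.72 (clone 2 minus clone 6, 0.00325). AADAT differed by 0.62 (clone 2 minus clone 6, adjusted p = 0.0206), DDX60L by -0.72 (clone 2 minus clone 3, 0.000175), TMEM131L by 0.72 (clone 1 minus clone 3, 0.0305), MND1 by 0.52 (clone 1 minus clone 6, 0.0213) and TMA16 by 0.42 (clone 1 minus clone 3, 0.0221). The signs depend on which clone of a pair is written first. Most of these neighbours were named because they were called against the parental line.

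Among the neuropeptide Y genes, MME differed by -0.57 (clone 2 minus clone 3, adjusted p = 0.0401), DPP8 by 0.82 (clone 1 minus clone 3, 2.50e-05) and CPE by -0.40 (clone 1 minus clone 6, 0.0277). In the Y receptor signalling list, ADCY9 differed by -0.71 (clone 1 minus clone 6, adjusted p = 0.00188) and RGS10 by 0.81 (clone 1 minus clone 3, 0.000481). In the follistatin and activin lists, FSTL4 differed by -0.80 (clone 1 minus clone 3, adjusted p = 0.000306), SMAD6 by 0.78 (clone 2 minus clone 3, 0.00300), GDF11 by 0.49 (clone 2 minus clone 6, 0.0373), BAMBI by 0.88 (clone 1 minus clone 6, 0.000574) and SKIL by 0.77 (clone 2 minus clone 3, 0.00278). In the oestrogen list, GATA3 differed by -2.38 (clone 2 minus clone 3, adjusted p = 2.66e-08), TFF1 by -0.92 (clone 3 minus clone 6, 0.000371), AGR2 by -1.19 (clone 1 minus clone 3, 2.32e-05), TFF3 by -0.55 (clone 1 minus clone 6, 0.0392) and GREB1 by 0.63 (clone 2 minus clone 6, 0.0486).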

How the results depend on the processing

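The changes of NPY1R and FSTL5 from parental were negative under all 24 alternatives in each clone. With gaps of 2.55 and 2.43 between parental and clone arrays, no other sign was to be had from refits of the same arrays. This contrast also chose the genes, so only the range of sizes is described. Without 1 array, NPY1R ran from -3.65 to -3.33, -3.59 to -3.31, -3.27 to -2.99 and -4.04 to -3.76 in clones 1, 2, 3 and 6, and FSTL5 from -2.93 to -2.69, -2.83 to -2.58, -2.93 to -2.69 and -3.01 to -2.77, its smallest sizes without parental replicate 3. Between clones, NPY1R in clone 3 minus clone 6 ran from 0.66 to 0.93, and clone 1 minus clone 2 from -0.21 to 0.08. Array weights gave 0.18 for that last pair (limma adjusted p = 0.798) and passed clone 1 minus clone 6 (0.63, adjusted p = 0.0231). NPY5R ran from -0.19 to 0.01 (clone 1 minus clone 6), -0.08 to 0.14 (clone 2 minus clone 3) and -0.03 to 0.20 (clone 3 minus clone 6).

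Genes called numbered 1229 to 2241, 1265 to 2224, 1275 to 2243 and 1889 to 2819 without 1 array in clones 1, 2, 3 and 6, the lowest of the first 3 without parental replicate 3, and 3448 in clone 1 with array weights, which also called 10 of the 4q neighbours there. Without 1 array the neighbours called ran from 3 to 6, 2 to 6 and 5 to 11 in clones 1, 3 and 6. Genes called in at least 1 clone ran from 3 to 8 in the Y receptor signalling list, 1 to 3 in the follistatin list and 5 to 10 in the activin list. The follistatin list gave 0 with the stricter filter, since its called genes are dim, and 1 with 6 arrays. Of the calls, 65.0, 67.7, 63.8 and 65.5% were lower in clones 1, 2, 3 and 6. As deposited, the upper quartile was 5.94 to 5.96 in parental and 5.80 to 5.89 in clone arrays. Renewed quantile normalization, which makes the arrays' distributions alike, made the lower share 52.1, 52.2, 50.3 and 49.7%. The cause of the difference in scale was not tested.

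Changes that were not called turned sign for TMEM131L in clone 1 (0.04 with renewed quantile normalization, 0.05 with array weights; -0.12 to 0.12 without 1 array) and clone 2 (-0.31 to 0.10), ADCY9 in clone 6 (0.07, 0.04; -0.12 to 0.09), AGR2 in clone 3 (0.01 with renewed quantile normalization), DDX60L in clone 3 (-0.16 to 0.01), MND1 in clone 1 (-0.27 to 0.07), CPE in clone 1 (-0.05 to 0.14), RGS10 in clone 6 (-0.01 to 0.08), NPY in clones 2 and 3 (-0.11 to 0.06, -0.03 to 0.05), PYY in clone 3 (-0.07 to 0.22) and FST in clone 2 (-0.10 to 0.03).

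Replicate numbers were not taken to pair the arrays in the main fit, since not every pair of same-numbered arrays had deviations correlated over 0.1. That rule can miss a weaker or partial link between same-numbered arrays. Their correlations ran from -0.129 to 0.462, over 0.1 in 10 of 30 pairs, against -0.384 to 0.231, over 0.1 in 7 of 60 pairs, for different numbers, and 9 of 15 arrays correlated best with an array of their own number. With the replicate number as a block, 2315, 2314, 2298 and 2895 genes were called in clones 1, 2, 3 and 6. The main fit called fewer in each, 2092, 2058, 2090 and 2724. NPY1R in clone 3 minus clone 6 was 0.77 with the block (limma adjusted p = 0.00759). Among the named genes the block added the calls of TMEM131L (-0.49, 0.0156) and GRK5 (0.36, 0.0440) in clone 6 and of GDF11 (-0.43, 0.0386) in clone 2. Dim signal limits FSTL5 in the clones and NPY5R everywhere, and 3 arrays per group limit the rest.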
